A study of Homo sapiens with 6 samples.

Results

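Metallothioneins are small, cysteine-rich proteins that bind zinc, copper and cadmium through their sulfur groups. Their genes are switched on when free zinc or cadmium rises, through the zinc-sensing transcription factor MTF1 and short promoter elements called metal response elements, and also by glucocorticoids, oxidants and inflammatory signals. In epithelial cells and carcinomas MT2A is usually the main member, while MT1 genes are used to varying degrees. The members were the rows of the deposited table named MT1A, MT1E, MT1F, MT1G, MT1M, MT1X or MT2A, and 7 of the 19973 genes listed were members. All of them lie in one cluster on chromosome 16 that spans 76.0 kb in GENCODE release 29 on GRCh38.

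RNA was sequenced from OVCAR3, an established human ovarian cancer cell line, in 3 libraries with shNC, a control hairpin, and 3 libraries with shNUF2, a hairpin against NUF2. NUF2 is a subunit of the NDC80 complex, which ties kinetochores to spindle microtubules. Both groups carried a U6-driven hairpin plasmid with puromycin resistance and were selected with puromycin, and shNUF2 cells carried 1 hairpin sequence, so that effects of that hairpin other than NUF2 knockdown cannot be told apart from it. The labels call the genotype WT with shNC and NUF2 knockdown with shNUF2.

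The libraries held between 13057534 and 16995452 counted reads, and p-values below measure the spread between libraries, since no source says whether the libraries of a group came from separate cultures. NUF2 itself fell from 65.2 ± 2.94 to 22.9 ± 2.40 CPM (read counts relative to library totals scaled by edgeR's TMM factors; SD, n = 3 each). Of 7 markers of serous ovarian carcinoma, MSLN, KRT7, KRT18, MUC16, PAX8 and EPCAM each had at least 44 reads in every library, and the sum of all 7 was 1171 to 1295 CPM with shNC and 998 to 1047 CPM with shNUF2. Means went from 392 ± 15.96 to 233 ± 1.18 CPM for MSLN and from 48.6 ± 3.47 to 28.9 ± 3.89 for MUC16 (SD, n = 3 each). They went from 10.1 ± 0.80 to 15.7 ± 0.90 CPM for PAX8 and from 3.39 ± 0.75 to 5.45 ± 1.16 for EPCAM (SD, n = 3 each). In both groups the sum came mainly from KRT7, at means of 668 and 574 CPM, and MSLN. WT1 had 0, 0 and 1 reads under shNC against 7, 1 and 0 under shNUF2. Leukocyte markers (4 genes) summed to 0.000 to 0.250 CPM with shNC and to 1.19 to 1.54 CPM with shNUF2, endothelial markers (3 genes) to 1.75 to 3.38 and 3.41 to 4.92 CPM, and 3 of 5 fibroblast markers had at most 3 reads in every library. The fibroblast sum, 83.4 to 89.3 CPM with shNC and 66.8 to 74.0 with shNUF2, came mainly from COL1A1, while DCN was at 2.50 to 4.57 CPM with shNC and at 7.78 to 9.64 with shNUF2. Among the endothelial markers, CDH5 had 1, 1 and 4 reads under shNC against 15, 19 and 27 under shNUF2, while PECAM1 had 46, 24 and 49 against 28, 43 and 32. The part of these markers in the results was not tested.

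The coding sequences of the 4 members with reads in every library show how closely the family is related. Each one is 186 bases long, spread over 3 exons on the forward strand in GENCODE release 29, and is shown from start to stop codon with its cysteine codons in capitals.
MT2A: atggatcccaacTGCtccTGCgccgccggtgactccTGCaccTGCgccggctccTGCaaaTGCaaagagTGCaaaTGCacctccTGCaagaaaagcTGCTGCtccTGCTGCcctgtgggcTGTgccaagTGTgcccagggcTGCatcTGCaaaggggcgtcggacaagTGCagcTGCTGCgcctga
MT1E: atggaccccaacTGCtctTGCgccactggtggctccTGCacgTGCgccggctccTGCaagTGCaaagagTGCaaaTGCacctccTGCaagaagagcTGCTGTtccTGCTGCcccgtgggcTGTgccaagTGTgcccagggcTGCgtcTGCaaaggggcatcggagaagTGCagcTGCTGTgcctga
MT1F: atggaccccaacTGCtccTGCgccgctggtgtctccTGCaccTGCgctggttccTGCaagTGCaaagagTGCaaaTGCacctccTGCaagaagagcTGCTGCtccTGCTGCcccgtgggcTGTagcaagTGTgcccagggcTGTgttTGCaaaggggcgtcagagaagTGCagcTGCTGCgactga
MT1X: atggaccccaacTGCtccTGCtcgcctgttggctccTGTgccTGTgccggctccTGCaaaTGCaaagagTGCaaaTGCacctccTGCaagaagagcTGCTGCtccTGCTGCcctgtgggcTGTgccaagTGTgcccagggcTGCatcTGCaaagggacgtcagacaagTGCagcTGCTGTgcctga
Each sequence holds 20 cysteine codons among 61 amino acid codons (32.8%), and so do those of MT1A, MT1G and MT1M. Among all 21 pairs of members, the coding sequences were identical at 88.7% to 95.2% of the aligned bases, the least for MT1F with MT1X and the most for MT1G with MT2A. Reads can therefore fit more than 1 member, mainly when they are short. Of all stretches of 50 bases in the annotated transcripts, 3.02% of those of MT2A, 7.10% of MT1E, 1.22% of MT1F and 18.3% of MT1X also occur in a transcript of another gene. At 100 bases 0% of MT2A, MT1E and MT1F stretches are shared, and 11.3% of MT1X stretches are, all with AC026461.1, an annotated noncoding transcript that overlaps MT1X on the same strand. The read length is not given in the sources used here.

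MT2A (ENSG00000125148, chromosome 16 from 56608584 to 56609497) was the most abundant member. It had 1444, 1547 and 2047 reads in shNC replicates 1, 2 and 3, and 6068, 5836 and 6598 reads in shNUF2 replicates 1, 2 and 3. In normalized counts these were 102, 96.8 and 119 CPM with shNC against 450.2, 449 and 439 CPM with shNUF2. The groups lay far apart, and the shNUF2 libraries differed little among themselves. MT2A was 4.22-fold higher with shNUF2, with means of 106 ± 11.7 and 446 ± 6.32 CPM (SD, n = 3 each), which is a difference of 2.07 on the log2 scale (standard error 0.06, adjusted p = 2.33e-21 by the quasi-likelihood test of edgeR, adjusted after Benjamini and Hochberg for all 12874 genes tested). Ranked by the authors' FPKM, which divides counts by gene length and library total, MT2A moved from place 229 of all genes listed with shNC to place 40 with shNUF2.

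MT1E (ENSG00000169715, from 56625475 to 56627112), the next protein-coding gene in the cluster, was the second most abundant member and had the smallest fold change of the members tested. Its values were 23.1, 23.1 and 27.4 CPM in the shNC libraries and 60.02, 54.6 and 57.8 CPM in the shNUF2 libraries. The lowest shNUF2 value was about as far above the highest shNC value as that value was from 0. The means were 24.5 ± 2.51 and 57.5 ± 2.71 CPM (SD, n = 3 each), a rise of 1.22 on the log2 scale (standard error 0.08, adjusted p = 2.28e-13 by the same edgeR test).

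MT1F and MT1X, at the far end of the cluster, were expressed at low levels and had the widest spread. MT1F (ENSG00000198417, from 56657731 to 56660698) had 57, 42 and 79 reads under shNC against 200, 127 and 227 under shNUF2. Its means were 3.74 ± 1.01 and 13.2 ± 3.00 CPM (SD, n = 3 each), a rise of 1.82 on the log2 scale (standard error 0.19, adjusted p = 4.64e-09 by the same edgeR test). MT1X (ENSG00000187193, from 56682470 to 56684196) had 43, 35 and 39 reads under shNC against 171, 104 and 210 under shNUF2. It rose from 2.49 ± 0.46 to 11.6 ± 3.14 CPM (SD, n = 3 each), a log2 fold change of 2.22 (standard error 0.21, adjusted p = 6.61e-10 by the same edgeR test). In both genes shNUF2 replicate 2 was the lowest shNUF2 library, at 9.77 CPM for MT1F and 8.002 CPM for MT1X, and still above every shNC library. MT1E was also at its lowest shNUF2 value in that library, and MT2A was not. For MT1F and MT1X, shNC replicate 2 was likewise the lowest shNC library, at 2.63 and 2.19 CPM.

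**Figure D1:**
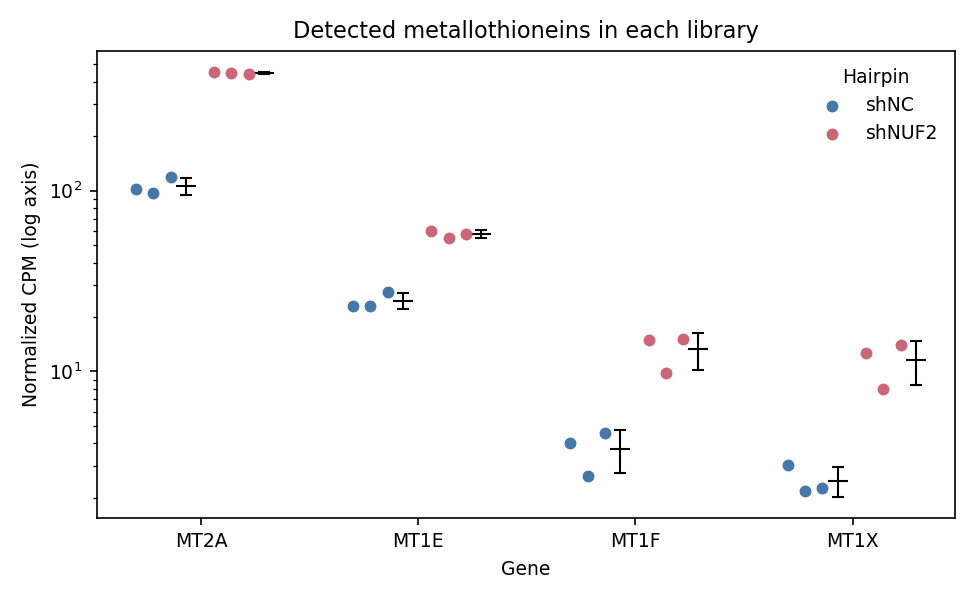
Normalized CPM (vertical log axis) of MT2A, MT1E, MT1F and MT1X in the 3 shNC and 3 shNUF2 libraries (points, replicates 1 to 3 from left to right), with the mean and SD of each group as a black bar. In each gene the shNUF2 points sit above all shNC points, by the widest margin for MT2A and with the widest scatter for MT1F and MT1X.

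The remaining members were silent in these cells. MT1A (ENSG00000205362, from 56638666 to 56640087) and MT1M (ENSG00000205364, from 56632659 to 56633981) had 0 reads in all 6 libraries, and MT1G (ENSG00000125144, from 56666730 to 56668065, the only member on the reverse strand) had 1 read in shNC replicate 2 and 0 elsewhere. A count of 0 allows up to 3 reads, which is 0.174 to 0.231 CPM in these libraries, and covers counting error only. These 3 members were not tested, and no fold change is given for them. Among the other metallothionein genes in the table, MT1H, MT1HL1 and MT3 also had 0 reads in every library. MT1B had 3 reads in shNUF2 replicate 3 and none elsewhere, and MT4 had 0 reads with shNC and 1, 4 and 1 with shNUF2. The pseudogenes of the cluster were not analysed here.

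In all, 4 members were tested, and each was a differentially expressed gene (DEG) that was higher with shNUF2, that is, with a log2 fold change above 1 and an unadjusted p under 0.05, the thresholds of the study's methods read on the log2 scale. Of all 12874 genes tested, 9.41% were DEGs in that direction and 13.6% in either direction. Each of the 4 had at least 35 reads in every shNC library, so that none passed the filter on low counts through the shNUF2 libraries alone. Each of the 4 also had an adjusted p under 0.05 with a rise, as 33.9% of all genes tested did. The groups did not overlap for any of the 4, with all shNUF2 values on the higher side, which held for 35.2% of all genes tested (exact two-sided permutation test of one gene, p = 0.10, and 3 libraries against 3 cannot give less). Among genes at least as abundant on average, 5 of 590 had a larger log2 fold change than MT2A, 67 of 10204 than MT1X, 115 of 9908 than MT1F and 154 of 5588 than MT1E.

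Levels were compared between members by FPKM. With shNC the order was MT2A at 117 ± 12.8, MT1E at 23.6 ± 2.42, MT1F at 2.04 ± 0.55 and MT1X at 1.46 ± 0.26 FPKM (SD, n = 3 each). With shNUF2 it was MT2A at 481 ± 7.47, MT1E at 53.9 ± 2.05, MT1F at 7.04 ± 1.56 and MT1X at 6.59 ± 1.76 FPKM. The ranges of MT1F and MT1X over the libraries overlapped in each group, although MT1F was the higher in each of the 6 libraries, while MT2A and MT1E stood apart from each other and from both.

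MT1E made up less, and MT2A more, of the members' reads in every shNUF2 library than in any shNC library. The members together had 1872, 1994 and 2637 reads under shNC against 7248, 6777 and 7904 under shNUF2. Their summed level was 137 ± 14.9 CPM with shNC and 528 ± 8.48 CPM with shNUF2 (SD, n = 3 each), a ratio of 3.87, and their share of all reads went from between 0.0127% and 0.0155% to between 0.0519% and 0.0525%. Within this sum, MT2A made up 77.1%, 77.6% and 77.6% of the reads in the shNC libraries and 83.7%, 86.1% and 83.5% in the shNUF2 libraries. Counting error was small beside this difference, with 95% Wilson intervals of 75.2% to 79.4% over the shNC libraries and 82.6% to 86.9% over the shNUF2 libraries. MT1E made up 17.5% to 18.5% with shNC and 10.5% to 11.2% with shNUF2, whereas the ranges of the groups overlapped for MT1F, at 2.11% to 3.04% and 1.87% to 2.87%, and for MT1X, at 1.48% to 2.30% and 1.53% to 2.66%.

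The reads of MT1E relative to those of MT2A were at -2.14, -2.07 and -2.12 on the log2 scale with shNC and at -2.91, -3.04 and -2.92 with shNUF2. This ratio fell by 0.85 on the log2 scale, with no overlap between the groups (exact two-sided permutation test, p = 0.10, adjusted p = 0.20 over the 6 pairs of tested members, which is not significant in a design that cannot go below 0.10). The ratio of MT1E also fell against MT1F, by 0.60, and against MT1X, by 0.95, each without overlap of the groups and with the same exact p. The 3 ratios among MT2A, MT1F and MT1X overlapped between the groups (exact permutation p from 0.20 to 0.90).

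**Figure D2:**
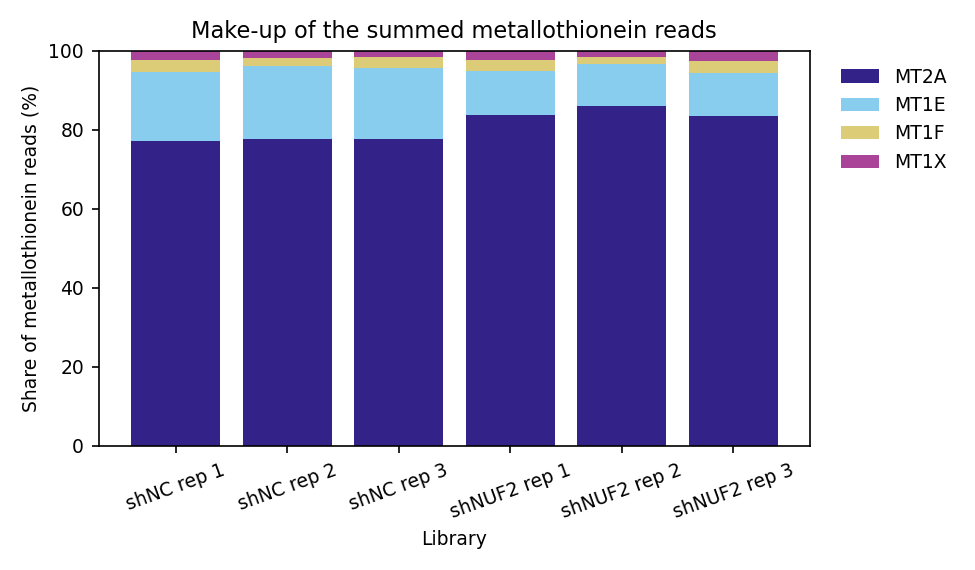
Share of each of 4 members (percent, vertical axis) in the summed metallothionein reads of each library, in stacked bars that add up to 100% apart from the 1 read of MT1G in shNC replicate 2. MT2A takes 77.1% to 77.6% of the reads with shNC and 83.5% to 86.1% with shNUF2, and MT1E shrinks accordingly.

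Metal response elements share a core, searched here as TGCNCNC on both strands. RefSeq promoter sequences of GRCh38.p14 were matched by symbol for 2 of the 7 members, MT2A and MT1X, and for MT1H, a silent gene of the cluster that is shown for contrast. Each is the 250 bases before the transcript start on the forward strand, at chr16:56608334-56608583 for MT2A, chr16:56682220-56682469 for MT1X and chr16:56669564-56669813 for MT1H, with matches of the core in capitals. The start is that of RefSeq, and GENCODE release 29 has transcripts of MT2A and MT1X that begin farther upstream.
MT2A: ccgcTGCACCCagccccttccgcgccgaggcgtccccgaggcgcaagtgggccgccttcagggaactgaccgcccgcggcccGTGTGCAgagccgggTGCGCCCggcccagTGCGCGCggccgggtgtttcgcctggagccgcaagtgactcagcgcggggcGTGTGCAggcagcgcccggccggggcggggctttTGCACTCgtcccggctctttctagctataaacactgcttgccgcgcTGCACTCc
MT1X: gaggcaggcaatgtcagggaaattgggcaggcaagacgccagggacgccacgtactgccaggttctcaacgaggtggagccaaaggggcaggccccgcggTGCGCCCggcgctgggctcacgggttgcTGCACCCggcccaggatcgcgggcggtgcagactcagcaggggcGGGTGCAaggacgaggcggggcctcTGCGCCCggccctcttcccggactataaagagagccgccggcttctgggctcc
MT1H: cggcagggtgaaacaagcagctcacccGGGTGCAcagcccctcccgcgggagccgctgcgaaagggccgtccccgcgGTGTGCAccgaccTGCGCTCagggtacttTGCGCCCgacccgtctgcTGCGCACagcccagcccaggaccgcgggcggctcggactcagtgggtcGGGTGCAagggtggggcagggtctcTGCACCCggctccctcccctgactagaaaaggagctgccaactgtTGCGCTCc
The MT2A window holds 7 separate matches, 5 on the strand of the gene and 2 on the other, and the MT1X window holds 4. MT1H, with 0 reads in every library, holds 8. Of 35115 promoter windows of this length, 49.1% hold at least 1 match, 1.48% at least 4, 0.0683% at least 7 and 0.0427% at least 8. Among these 3 genes the silent one had the most matches. The MT2A window also holds 1 match of the AP-1 core TGANTCA, found in 6.57% of all windows, and it overlaps a match of the antioxidant response element core TGACNNNGC, found in 10.9% of windows. The MT1X window holds 1 match of the antioxidant core and 0 of the AP-1 core, and MT1H 0 of each. The windows of MT1B and MT4, which had few or no reads, hold 5 matches of the metal response core each, and MT1B also holds 1 match each of the antioxidant and AP-1 cores, whereas MT4 holds 0. These are matches of letters, not sites shown to be bound.

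Of the 8 flanking genes tested, 1 was a DEG higher and 1 a DEG lower (4.16% of all genes tested). The one that was higher, CETP, passed the filter on low counts only through the shNUF2 libraries. Its count, and the median log2 fold change of -0.06 that includes it, are therefore not set against all genes. On the side of MT2A, the log2 fold changes were 0.16 for BBS2 (standard error 0.05), -0.48 for OGFOD1 (0.07) and -0.08 for NUDT21 (0.04), and on the side of MT1X they were 0.15 for NUP93 (0.05), -0.05 for HERPUD1 (0.05) and -0.12 for NLRC5 (0.06). None of these 6 was a DEG. The largest change on either side was in SLC12A3, which encodes the thiazide-sensitive sodium chloride cotransporter and starts 257 kb from MT2A. It had 1055, 1206 and 1330 reads under shNC against 105, 124 and 133 under shNUF2, without overlap, and a log2 fold change of -3.12 (standard error 0.08, adjusted p = 2.84e-21 by the same edgeR test). CETP, the cholesteryl ester transfer protein, was higher on few reads, at 8, 3 and 5 under shNC against 16, 22 and 24 under shNUF2, and given how it passed the filter these values are a description.

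**Figure D3:**
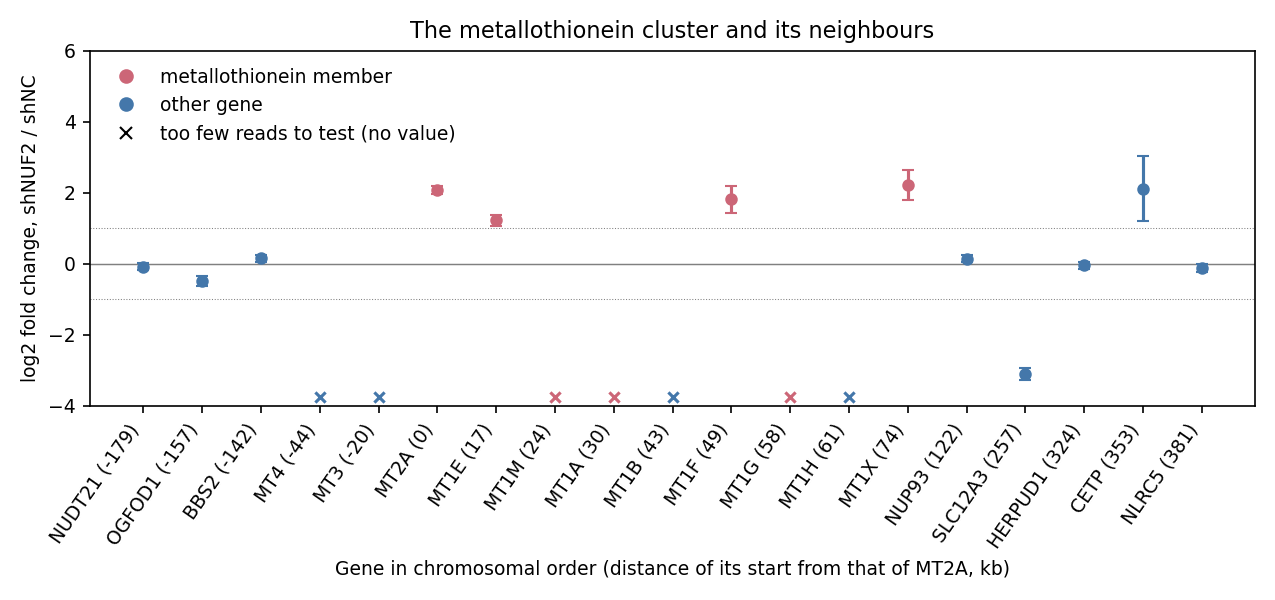
The log2 fold change of shNUF2 against shNC (vertical axis, bars are 95% intervals from the standard error) for genes in chromosomal order, labelled with the distance of their start from that of MT2A in kb. Points of the 4 tested members lie between 1.22 and 2.22, crosses at the bottom mark genes with too few reads and no value, and SLC12A3 lies at -3.12.

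MTF1, the zinc sensor, had 362, 391 and 399 reads under shNC against 439, 415 and 556 under shNUF2, or 24.4 ± 1.14 and 33.8 ± 2.74 CPM (SD, n = 3 each), a log2 fold change of 0.48 (standard error 0.09, adjusted p = 2.48e-05 by the same edgeR test). SLC30A1, the zinc exporter of the plasma membrane and a known MTF1 target, went the other way, from 253 ± 1.96 to 212 ± 12.1 CPM (SD, n = 3 each; log2 fold change -0.25, standard error 0.05, adjusted p = 2.23e-05 by the same edgeR test). Neither gene reached the fold threshold. Of the 25 genes of MTF1, the SLC30 exporters and the SLC39 importers, 19 were tested. Of these, 3 were DEGs higher and 0 were DEGs lower, against 9.41% and 4.16% of all genes tested. By adjusted p alone, 8 were higher and 5 were lower, against 33.9% and 33.8% of all genes tested. Their log2 fold changes ran from -0.78 to 1.93, with a median of 0.13.

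The 3 DEGs of this zinc list were SLC30A4 and SLC30A3, which load zinc into vesicles, and SLC39A1, a zinc importer. SLC30A4 had 25, 24 and 41 reads under shNC against 108, 91 and 101 under shNUF2 (log2 fold change 1.93, standard error 0.22). SLC30A3 had 36, 26 and 29 reads and 72, 81 and 71 reads (1.48, standard error 0.25). SLC39A1 had 13, 33 and 32 reads and 51, 49 and 45 reads (1.10, standard error 0.29). All 3 are genes with few reads, and their largest adjusted p was 0.00171, for SLC39A1, by the same edgeR test. Of 10 copper handling genes, 8 were tested and 0 were DEGs in either direction, against 13.6% of all genes tested, while 2 were higher and 3 lower by adjusted p, against 33.9% and 33.8% of all genes tested, with log2 fold changes from -0.65 to 0.53.

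Among genes that answer to heavy metals or oxidants, the changes went both ways. Of 12 such genes, 11 were tested, 4 were DEGs higher and 2 were DEGs lower. One of the 4, HSPA6, passed the filter on low counts only through the shNUF2 libraries and had to be higher. Of the other 10 tested, 3 were DEGs higher and 2 were DEGs lower, against 9.41% and 4.16% of all genes tested, with a median log2 fold change of 0.08. HMOX1, the haem-degrading enzyme that cadmium and arsenite induce, had 774, 817 and 834 reads under shNC against 2928, 2564 and 3075 under shNUF2, and its log2 fold change of 2.01 (standard error 0.05, adjusted p = 2.51e-21 by the same edgeR test) was close to that of MT2A. The heat shock gene HSPA1A rose by 1.45 on the log2 scale (standard error 0.06) and HSPA1B by 1.36 (0.07), and since these are near-identical copies their reads cannot be assigned with certainty. HSPA6, another heat shock gene, had 3, 3 and 1 reads under shNC against 13, 17 and 19 under shNUF2, a ratio of 7.99 with an exact 95% counting interval of 3.60 to 20.9, given as a description. The log2 fold change was 0.67 for HSPH1 (standard error 0.05) and -0.07 for DNAJB1 (0.05), which are also heat shock genes and were not DEGs.

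By contrast, SLC7A11, the cystine importer, had 4445, 5729 and 6083 reads under shNC against 1230, 1181 and 1476 under shNUF2, and fell by 1.87 on the log2 scale (standard error 0.05, adjusted p = 8.64e-21 by the same edgeR test). NQO1, a quinone reductase, fell by 1.12 (standard error 0.05). HMOX1, SLC7A11 and NQO1 are all known targets of the oxidant-responsive factor NRF2, as are GCLC, GCLM and TXNRD1, whose log2 fold changes were 0.16 (standard error 0.05), -0.23 (0.06) and -0.01 (0.04). NQO1, HSPA1B, HSPH1, DNAJB1, GCLC, GCLM and TXNRD1 fall outside the rule for named genes and were chosen after their values were seen. So were PER1, TSC22D3, FKBP5, SGK1 and KLF9.

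The glucocorticoid receptor gene NR3C1 had 102 ± 5.62 CPM with shNC and 114 ± 2.89 CPM with shNUF2 (SD, n = 3 each; log2 fold change 0.16, standard error 0.05, adjusted p = 0.00612 by the same edgeR test). Of the receptor and 9 of its targets, 9 genes were tested, 1 was a DEG higher and 0 were DEGs lower, against 9.41% and 4.16% of all genes tested, with a median log2 fold change of 0.16. By adjusted p alone, 6 were higher and 1 was lower, against 33.9% and 33.8% of all genes tested. The DEG was ERRFI1, a feedback inhibitor of ERBB receptors that growth factors also induce, with 4728, 4262 and 4643 reads under shNC against 23452, 18795 and 22957 under shNUF2 (log2 fold change 2.44, standard error 0.07, adjusted p = 4.15e-21 by the same edgeR test). Among common readouts of the receptor, the log2 fold change was 0.61 for PER1 (standard error 0.06), 0.56 for TSC22D3 (0.07) and -0.93 for FKBP5 (0.11), the gene that was lower. The change was 0.12 for SGK1 (0.05) and 0.01 for KLF9 (0.12).

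**Figure D4:**
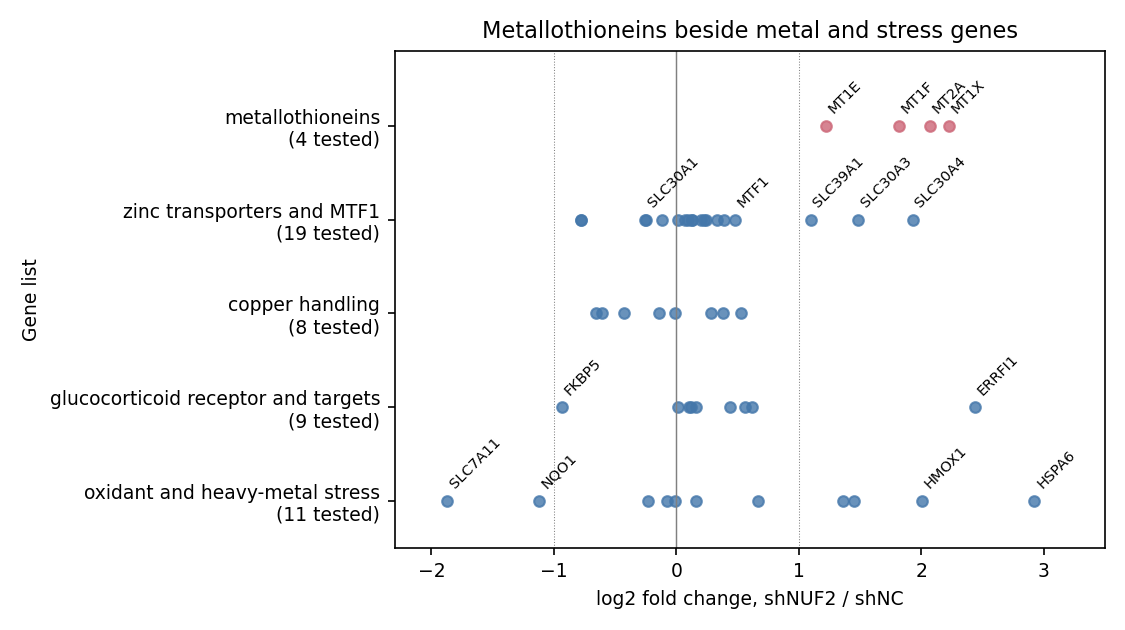
The log2 fold change of shNUF2 against shNC (horizontal axis) for each tested gene of the metallothioneins and 4 gene lists (rows), with dotted lines at the fold threshold of -1 and 1 and some genes labelled. The 4 metallothioneins lie to the right of the threshold, and of the 11 tested genes of oxidant and heavy-metal stress 4 lie to the right of the lines and 2 to the left. HSPA6 rests on few reads and passed the filter only through the shNUF2 libraries.

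The genes whose pattern was most like that of MT2A were found by the root mean square distance of log2 CPM, centred on its mean, over the 6 libraries. Among genes whose mean log2 CPM was 1 or more, the 5 closest were THBS1, a secreted matrix glycoprotein, at 0.07, TRPV3, a cation channel, at 0.08, CXCL2, a chemokine, at 0.09, and BLACAT1 and TSC22D2, both at 0.10. The 0.5 CPM added before the log brings low genes closer: TRPV3 and BLACAT1, at means of 1.89 and 0.95 CPM with shNC, had ratios of 5.54 each between the groups, against 4.22 for MT2A. THBS1 had 113, 120 and 144 reads under shNC against 443, 473 and 497 under shNUF2. The other members were farther from MT2A, MT1X at 0.30, MT1F at 0.31 and MT1E at 0.43. Among all 12874 genes tested, with no limit on mean log2 CPM, 250, 287 and 552 genes were closer.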

How the data were processed

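RNA-seq libraries of OVCAR3 cells, 3 with shNC and 3 with shNUF2, were prepared with a stranded mRNA kit. The submitters' processing notes name cutadapt, HISAT, HTSeq and GRCh38.p13. The authors deposited raw read counts per gene and FPKM values, which equal count divided by length and library total up to a constant, to a relative deviation of 2.71e-07. How reads shared by paralogs were treated, and the read length, are not given in the sources used here. Tests on the counts used edgeR (version 4.0.16, R 4.3.3), with filterByExpr by group, TMM, and the quasi-likelihood test on all 6 libraries without covariates. Each standard error is the log2 fold change over the root of F. Coding sequences came from GENCODE release 29, whose gene positions overlap those deposited, and promoters from RefSeq. Named genes were the 7 members, NUF2, MTF1, SLC30A1, NR3C1, tested neighbours of the cluster (5 genes on each side), up to 4 DEGs with the largest change per list, and the 5 genes most like MT2A (with 0.5 CPM added before the log). Cell type markers, other metallothionein genes and the genes stated above to fall outside this rule were named as well. Members and lists were chosen with earlier results of these data known. Alternatives used DESeq2 1.42.0 and limma 3.58.1. The edgeR, DESeq2 and limma fits were tested on simulated data. Python 3.11.15 with scipy 1.17.1 was used for the rest.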

Additional observations from a re-analysis of the deposited data

How the results depend on the processing

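Under all alternatives tried (other scalings, DESeq2's Wald test, other filters, the replicate block, each library left out, limma on log2 FPKM plus 1 or 0.1, and adjusted p), the same number of members, 4, was called higher and 0 lower, and no direction changed. Leaving out each library in turn gave log2 fold changes of 2.01 to 2.16 for MT2A, 1.18 to 1.31 for MT1E, 1.62 to 2.00 for MT1F and 2.06 to 2.42 for MT1X, and a log2 ratio of the summed level of 1.89 to 2.04. The lowest values of MT1F and MT1X, 1.40 and 1.60, came from limma on log2 of FPKM plus 1, and the largest adjusted p of any member was 5.53e-05, for MT1F with limma on log2 of FPKM plus 0.1. Over all genes, limma on log2 of FPKM plus 1 called 430 genes higher and 206 lower, against 1212 and 536, and keeping genes that reached 1 CPM in all libraries gave 756 and 397, whereas no filter on low counts gave 1770 and 634.

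With the replicate number as a block, the log2 fold changes were 2.08 for MT2A, 1.23 for MT1E, 1.82 for MT1F and 2.20 for MT1X, and 1207 genes were higher and 536 lower. Deviations from the group means had correlations across genes of 0.02, 0.00 and -0.03 between same-numbered libraries. Between libraries of different number they ran from -0.03 to 0.03. With 3 libraries per group, such small values cannot decide whether the numbers pair the libraries, and no source says so.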
